A study of Mus musculus with 18 samples.

Results

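The regions described here are stretches of mouse chromatin that carried trimethylated histone H3 lysine 27 (H3K27me3) in macrophages of 3 genotypes and that lay away from the starts of protein-coding genes. To find them, overlapping peaks of the WT, mdx and mdxTLR4-/- lists were merged on chromosomes 1 to 19 wherever they shared at least 1 bp. A merged region was kept if a peak of each of the 3 lists touched it, if it was shorter than 50 kb and if it held no 5' end of a protein-coding gene. Of 36072 merged regions, 17005 were shared by the 3 lists, and 12546 of these (73.8%) met the whole rule. The regions were thus chosen by the presence and the length of their H3K27me3 peaks, and those values are given here as description. A protein-coding gene was overlapped by 4978 of them (39.7%), here called gene-body regions, and 7568 (60.3%) were intergenic. The other shared regions were 3665 regions over a coding gene start and 794 domains of 50 kb or more.

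The lists came from native ChIP-seq, without crosslinking and with micrococcal nuclease, of bone marrow-derived macrophages (BMDM) that had received no stimulus. BMDM are macrophages grown from bone marrow precursors in culture, here in medium conditioned by L929 cells, which supplies macrophage colony-stimulating factor. The labels give WT as C57BL6, mdx as the Dmdmdx-4Cv allele of the dystrophin gene, a model of Duchenne muscular dystrophy, and mdxTLR4-/- (label mTLR4, strain label Bl6/Bl10) as mdx mice that also lack Toll-like receptor 4, so that the dystrophin mutation is common to both mutant groups. All were male, and for H3K27me3 each genotype had 2 ChIP and 2 input libraries. The labelled age followed the genotype: ChIP libraries were labelled 12 to 13 weeks for WT, 14 to 15 for mdx and 16 to 17 for mdxTLR4-/-, and inputs 6 to 7, 8 to 9 and 10 to 11 weeks. H3K27ac ChIP libraries were labelled 19 to 20 weeks for WT (2 libraries), 21 to 22 for mdx (2) and 23 for mdxTLR4-/- (1), with 1 input at 18 weeks. No age is repeated among the labels, which count up in steps of 1 week through the series, inputs included, so whether they are the animals' true ages is in doubt. As labelled, age and strain background cannot be told apart from genotype. The 2 libraries of a genotype had been merged before peaks were called, so each genotype has 1 value per region, without an SD and without a test between genotypes. Peak lists of a histone mark do not show the dystrophin mutation or the Tlr4 deletion, so the genotype labels were not checked here.

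H3K27me3 is written by Polycomb repressive complex 2, whose catalytic subunit is EZH1 or EZH2 and whose EED subunit binds the finished mark, which lets the complex extend it along neighbouring nucleosomes. In mammalian cells the complex is recruited mainly to CpG islands, stretches rich in unmethylated CpG that often mark gene starts, and H3K27me3 is known for silencing developmental and other-lineage genes in differentiated cells. Acetylation of the same residue (H3K27ac) marks active promoters and enhancers and cannot sit on the same histone tail as the methylation. Broad, weak H3K27me3 also lies over inactive gene bodies and intergenic chromatin, where it is usually less dense than at CpG islands.

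Most of these regions held no CpG island, and sequences of some that did are shown first because regions with an island were the denser ones. The windows of 300 bases with the most CpG are printed below for 4 regions rich in island sequence, with CG in capitals. The sequence is that of GRCm38 (mm10). These 4 were taken, after their values were seen, from 8 regions, namely the 4 intergenic and the 4 gene-body regions with the most island bases. Of these 8, 5 lay over no annotated rRNA or pseudogene, and the one in Cxxc5 is not printed. The first lies in Nfib, a transcription factor gene, 190550 bp from the gene's 5' end, and holds 51 CpG at 84.3% GC. The second lies in Begain, which encodes a postsynaptic scaffold-associated protein (49 CpG, 79.3% GC). The third lies in Bahcc1, a gene for a BAH-domain chromatin protein (36 CpG, 70.7% GC). The last is intergenic by GENCODE, 70514 bp from the Dhx15 start, but RefSeq places it in Ppargc1a, the gene of the mitochondrial coactivator PGC-1alpha (52 CpG, 76.0% GC).
Nfib, chr4:82506392-82506691, plus strand: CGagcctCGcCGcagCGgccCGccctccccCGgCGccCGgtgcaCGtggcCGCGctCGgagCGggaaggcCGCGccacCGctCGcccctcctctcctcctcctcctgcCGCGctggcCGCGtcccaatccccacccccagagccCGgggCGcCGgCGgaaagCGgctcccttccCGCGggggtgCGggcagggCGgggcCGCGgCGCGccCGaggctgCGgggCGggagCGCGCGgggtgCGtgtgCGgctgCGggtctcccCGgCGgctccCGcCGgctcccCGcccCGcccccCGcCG
Begain, chr12:109052455-109052754, plus strand: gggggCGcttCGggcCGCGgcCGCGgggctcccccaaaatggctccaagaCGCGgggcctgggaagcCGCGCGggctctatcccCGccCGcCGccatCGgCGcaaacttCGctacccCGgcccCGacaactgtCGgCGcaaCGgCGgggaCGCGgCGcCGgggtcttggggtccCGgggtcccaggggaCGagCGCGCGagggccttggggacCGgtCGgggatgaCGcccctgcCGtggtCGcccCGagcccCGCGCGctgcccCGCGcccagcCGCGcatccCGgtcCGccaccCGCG
Bahcc1, chr11:120234789-120235088, plus strand: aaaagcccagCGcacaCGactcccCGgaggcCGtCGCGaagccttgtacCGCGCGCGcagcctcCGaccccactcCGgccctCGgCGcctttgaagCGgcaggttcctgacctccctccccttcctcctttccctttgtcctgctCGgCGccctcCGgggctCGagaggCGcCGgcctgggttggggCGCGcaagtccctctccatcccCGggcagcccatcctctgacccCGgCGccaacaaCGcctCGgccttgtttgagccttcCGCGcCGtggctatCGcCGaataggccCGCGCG
near Dhx15, chr5:52115670-52115969, plus strand: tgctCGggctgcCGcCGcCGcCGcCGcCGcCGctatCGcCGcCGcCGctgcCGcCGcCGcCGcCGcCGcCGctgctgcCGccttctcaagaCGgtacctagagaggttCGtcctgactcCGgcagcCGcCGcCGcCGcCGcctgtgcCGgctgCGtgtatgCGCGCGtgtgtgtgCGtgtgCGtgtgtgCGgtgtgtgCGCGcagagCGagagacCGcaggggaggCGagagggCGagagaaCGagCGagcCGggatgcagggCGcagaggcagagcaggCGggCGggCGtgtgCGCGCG

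A second set of sequences belongs to miRNA genes, the non-coding starts with a known product that these regions covered. The 12546 regions held 138 miRNA gene starts in 118 regions, which is 6.72% of the 2054 annotated miRNA genes on chromosomes 1 to 19, and 74 of the 138 matched a RefSeq entry by name. The 8 densest regions with a miRNA gene start gave 18 mature forms in RefSeq (GRCm38.p6). Printed below are 8 of these, 1 each for 8 miRNA genes, with the seed (bases 2 to 8) in capitals.
mmu-miR-182-5p, chr6:30165962-30165986, minus strand: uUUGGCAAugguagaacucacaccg
mmu-miR-96-5p, chr6:30169506-30169528, minus strand: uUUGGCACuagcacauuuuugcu
mmu-miR-183-5p, chr6:30169711-30169732, minus strand: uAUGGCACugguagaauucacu
mmu-miR-129-5p, chr2:94241419-94241439, minus strand: cUUUUUGCggucugggcuugc
mmu-miR-199b-3p, chr2:32318524-32318545, plus strand: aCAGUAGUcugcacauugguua
mmu-miR-499-5p, chr2:155622893-155622913, plus strand: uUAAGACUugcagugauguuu
mmu-miR-9-5p, chr13:83738821-83738843, plus strand: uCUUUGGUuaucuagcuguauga
mmu-miR-135a-5p, chr9:106154140-106154162, plus strand: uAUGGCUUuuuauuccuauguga
The first 3 are products of 1 cluster under a single intergenic region, and their seeds are close without being the same. Counted from the 5' end of the first of each pair, the seeds of miR-182-5p and miR-96-5p differ by A8C and those of miR-96-5p and miR-183-5p by U2A. No seed occurred more than once among the 18 mature sequences.

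As a check of the cell type, the gene starts of marker lists were compared with both marks. Of 46 macrophage genes, the starts of 25 lay under an H3K27ac peak in the WT list, 21 in mdx and 19 in mdxTLR4-/-. Under H3K27me3 lay the starts of 4 in WT, 1 in mdx and 1 in mdxTLR4-/-, with 1 in all 3 lists. For markers of other cells that a bone marrow culture could hold, H3K27ac touched the start in at least 1 list for 0 of 13 T lymphocyte genes, 1 of 11 B lymphocyte genes, 0 of 11 neutrophil genes and 1 of 13 fibroblast and endothelial genes. H3K27me3 covered the start in all 3 lists for 6, 6, 2 and 7 of these. Over all coding genes, 30.9% of starts lay under H3K27ac in at least 1 list and 21.0% under H3K27me3 in all 3. The neutrophil share under H3K27me3 (18.2%) did not exceed the latter. A list of peaks cannot separate a mark in fewer cells from a weaker mark in every cell. The autosomal H3K27me3 lists held 28024 (WT), 41558 (mdx) and 36294 (mdxTLR4-/-) peaks with 8315029, 10173431 and 7342998 ChIP reads in peaks; the depth of the libraries themselves is unknown.

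The regions were many, of moderate length and thinly marked. Their median length was 8000 bp (quartiles 5400 and 12800), with a range of 400 to 49800 bp, and together they covered 132 Mb, or 5.37% of chromosomes 1 to 19. They made up 50.5% of the bases in shared regions. Of the reads in all autosomal peaks, shared or not, they held 35.5% in WT, 33.7% in mdx and 32.6% in mdxTLR4-/-. Density, the ChIP reads per kb of the peaks inside a region, had a median of 23.9 in the WT list (quartiles 21.1 and 27.9), 29.3 in the mdx list (25.8 and 33.8) and 23.0 in the mdxTLR4-/- list (20.0 and 27.1). Regions over gene starts had medians of 33.8, 40.9 and 32.9, and domains of 50 kb or more 38.9, 47.0 and 37.4 reads per kb. In each of the 3 lists the medians thus stood in the same order of classes. Gene-body and intergenic regions were close to each other: 24.3 against 23.8 reads per kb in WT, 29.5 against 29.1 in mdx and 23.2 against 22.9 in mdxTLR4-/-, differences much smaller than either class's spread between quartiles.

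**Figure D1:**
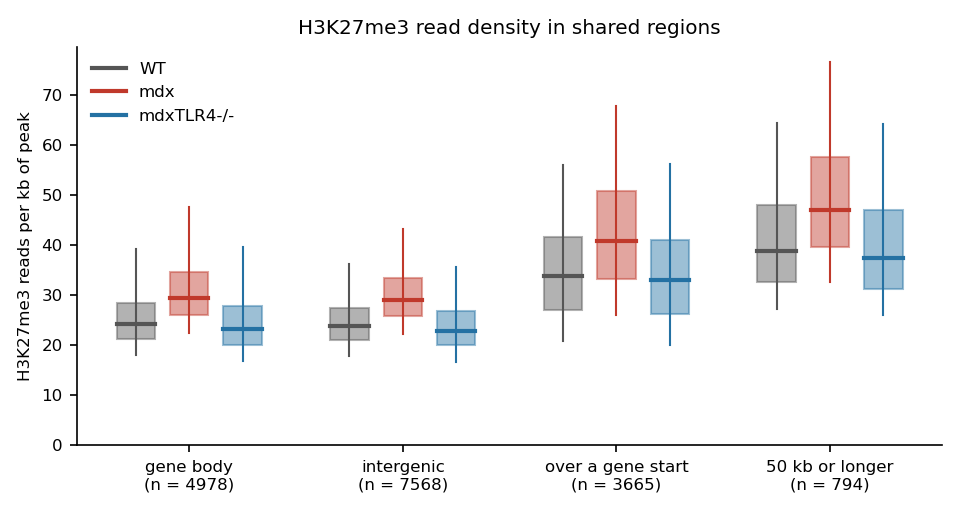
H3K27me3 reads per kb of peak (vertical axis, from 0) for the 4 classes of shared region, with 1 box per genotype list; each box spans the quartiles, its bar marks the median and its line runs from the 5th to the 95th percentile. Gene-body and intergenic regions sit at medians of 22.9 to 29.5 reads per kb, below regions over gene starts (32.9 to 40.9) and domains of 50 kb or more (37.4 to 47.0) in every list.

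Length was part of the rule, and the regions on either side of the 50 kb limit are given for description. The longest inside it were an intergenic region of 49800 bp, 1621 bp from the start of the splicing factor gene Sfswap, with 27.4 (WT), 34.4 (mdx) and 30.7 (mdxTLR4-/-) reads per kb, a gene-body region of 49600 bp in Sorcs2, which encodes a neuronal sorting receptor, with 22.4, 27.8 and 21.5, and an intergenic one of 49600 bp, 12118 bp from the lens crystallin gene Cryba4, with 44.1, 49.9 and 43.0. This last region held the long non-coding RNA gene Miat. Just outside were regions of 50000 bp near Qsox2 (41.3, 47.3 and 39.0 reads per kb), of 50200 bp near 2300009A05Rik (29.5, 36.6 and 26.2) and of 50200 bp at Chst11 (28.9, 35.2 and 28.2). The densities on either side overlapped.

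The 3 lists placed their peaks differently within a region. Peaks of the WT list covered a median of 87.9% of a region's bases, those of mdx 81.1% and those of mdxTLR4-/- 69.9%. Only 49.6% of the regions were a single peak in all 3 lists. The bases marked in all 3 lists at once made up a median of 50% of a region (quartiles 32.1% and 66.7%), against 68.6% in regions over gene starts and 87.2% in domains of 50 kb or more. In 338 regions (2.69%) no base was common to the 3 lists, although each list touched the region, against 12 of 3665 regions over starts (0.327%) and 0 of 794 domains. Being shared thus says less about position for these regions than for the other classes. The rank correlation of densities between lists is a description over regions that share libraries. Over the 12546 regions it was 0.653 (WT and mdx), 0.611 (WT and mdxTLR4-/-) and 0.619 (mdx and mdxTLR4-/-). Over the 3665 regions over starts it was 0.881, 0.868 and 0.878. The classes also differed in size, with 62.3% of the 12546 regions under 10 kb against 38.0% of regions over starts. At least 100 reads in both the WT and mdx lists were held by 64.1% against 88.8%. The part of length and read number in these gaps was not tested.

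The regions were not spread evenly and tended to stand in rows. Chromosome 9 had the most for its length, 7.62 per Mb, and chromosome 3 the fewest, 2.67 per Mb. The gap to the next shared region of any class had a median of 2400 bp, and 74.1% had another shared region within 10 kb. A coding gene start lay a median of 31640.5 bp away (quartiles 11600 and 76574). It lay within 1 kb of 3.44%, within 5 kb of 12.8% and more than 100 kb from 18.7% of the regions. Most of the regions were thus not the immediate flank of a coding start.

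In GC content the regions stood between the genome as a whole and regions over gene starts. Their GC content had a median of 46.2%, against 41.9% for chromosomes 1 to 19 as a whole and 48.3% in regions over starts. In flanking windows of equal length that touched no H3K27me3 region it was 44.3%. The ratio of observed to expected CpG had a median of 0.199, below the 0.275 of regions over starts. The genome's 0.194 is pooled over all bases, CpG islands included, so it is not a like value to a median of regions. Repeat-masked sequence took a median of 23.6% of a region, against 33.5% of the genome and 26.5% of the flanks. Both GC content and the CpG ratio were thus lower than in regions over starts.

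A CpG island, here at least 500 bp with at least 55% GC and an observed to expected ratio of at least 0.65 in windows of 200 bp, was found in 707 of the 12546 regions (5.64%, 95% Wilson interval 5.25 to 6.05). All such intervals cover counting error only. Gene-body regions held one in 456 of 4978 cases (9.16%), and intergenic regions in 251 of 7568 (3.32%). The rule barred only the 5' end of a gene, and 709 of the 4978 gene-body regions (14.2%) held another coding transcript start. Among the 7568 intergenic regions 0 held one. The part of such starts in the gap between the 2 classes was not tested. The island share was 57.5% in regions over starts and 61.0% in domains of 50 kb or more. In flanking windows that touched no H3K27me3 region it was 12.4%, but 14.8% of those windows held a coding gene start, which the rule barred from the regions; among the 6320 flanks without one it was 2.37%. The regions therefore held islands less often than regions over starts and more often than these start-free flanks. Each flank had the length of its own region, but only 7422 of 25090 flanks (29.6%) touched no H3K27me3 region and were kept. The kept flanks were not matched in length to the regions, so windows of unlike length may be compared.
The 707 regions with an island were denser than the rest, with medians of 32.9 (WT), 40 (mdx) and 32.1 (mdxTLR4-/-) reads per kb against 23.7, 29 and 22.7 for the 11839 without. They were also nearer to a coding start, at a median of 12731 bp against 32642 bp. Of the regions within 5 kb of a coding start 16.5% held an island, against 4.53% of those more than 100 kb from one. The region in Nfib, with 3660 bp of island, carried 41.2 (WT), 50.3 (mdx) and 41.2 (mdxTLR4-/-) reads per kb. It covered 6 alternative coding transcript starts, and the 5' end of the whole gene lay under no peak of any list. The region in Begain, with 3050 bp of island, carried 38.1, 47.1 and 38.4 reads per kb, and there the gene's 5' end was marked in all 3 lists. The region in Bahcc1, 454 bp from the gene start with 2700 bp of island, was weaker, at 37.3, 35.3 and 25.6 reads per kb, and was also touched by H3K27ac peaks of 12, 8 and 10 reads. The Ppargc1a region near Dhx15, with 2980 bp of island, carried 32.8, 38.9 and 24 reads per kb. All 4 stood above the median of the 12546 regions in all 3 lists. The others of the 4 intergenic and 4 gene-body regions with the most island sequence lay in Cxxc5 (2890 bp), over the pseudogenes Gm21321 near Ulbp1 (3290 bp) and Gm16505 near Gdi2 (3260 bp), and over ribosomal DNA.

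**Figure D2:**
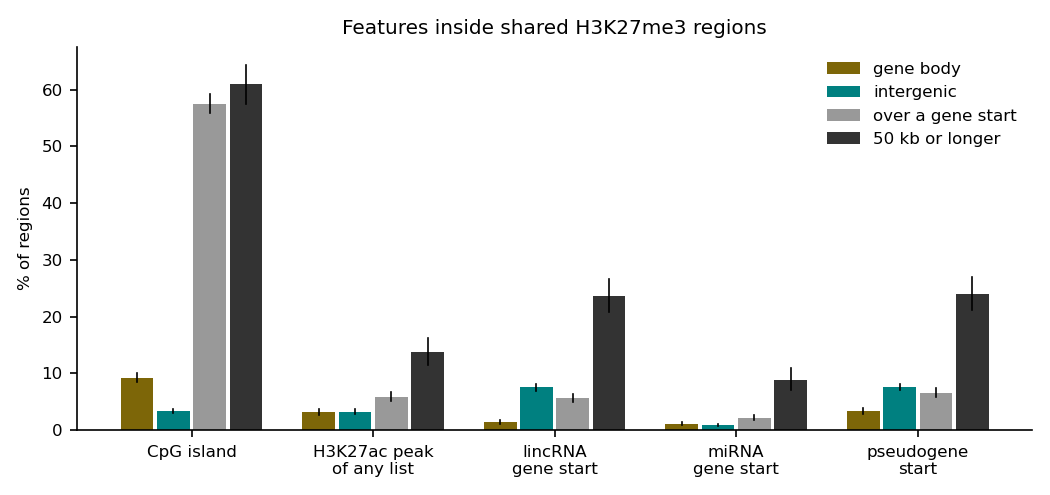
Share of regions (vertical axis, %) that hold a CpG island, an H3K27ac peak of any list, or the start of a lincRNA, miRNA or pseudogene, for the 4 classes of shared region; lines are 95% Wilson intervals for counting error. CpG islands were in 9.16% of gene-body and 3.32% of intergenic regions, against 57.5% of regions over gene starts and 61.0% of domains of 50 kb or more.

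Few of the regions were touched by an H3K27ac peak, and the H3K27ac lists were thin. They held 266063 (WT), 186508 (mdx) and 165505 (mdxTLR4-/-) autosomal reads in peaks, and touched 30.9% of all coding gene starts in at least 1 list. A region without a peak may thus still carry acetylation that these lists did not detect. A peak of any H3K27ac list touched 402 of 12546 (3.20%, 2.91 to 3.53), with 194 in the WT, 151 in the mdx and 142 in the mdxTLR4-/- list and 24 in all 3. The share was 3.15% in gene-body and 3.24% in intergenic regions, 5.84% in regions over starts and 13.7% in domains. The H3K27ac peaks that touched the regions were 1.30% of the WT, 1.30% of the mdx and 1.17% of the mdxTLR4-/- list. They were also small, with a median of 7.5, 8 and 6 reads against 11, 10 and 8 over each whole list, and 10.8%, 8.67% and 7.69% of them reached 20 reads, against 23.8%, 19.2% and 14.9% of the whole lists. Most of the overlap was thus with weak H3K27ac peaks.
Among the 24 regions touched in all lists, that with the most H3K27ac reads was the ribosomal DNA described below. These reads are totals of whole H3K27ac peaks that touch a region, also where a peak runs past it, and are not divided by length. The next was the body of C1qa, a complement component that macrophages make, 203 bp from the gene start, with 17 (WT), 101 (mdx) and 10 (mdxTLR4-/-) H3K27ac reads beside 28.1, 32.1 and 25.5 H3K27me3 reads per kb. The mdx list stood apart there in the H3K27ac peak totals alone, with no replicate check, and a longer peak can raise such a total. An intergenic region 33275 bp from Rnf7, a ubiquitin ligase subunit gene, had 55, 27 and 43 H3K27ac reads, the body of the class I histocompatibility gene H2-D1 had 31, 25 and 26, and a region 760 bp from Zranb2 had 27, 23 and 25. In the Rnf7 region the bases marked by H3K27me3 in all 3 lists were 11.1% of the region, so the lists placed H3K27me3 largely on different bases. H2-D1 has closely related class I copies, between which short reads can be split.

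Among intergenic regions of at least 2 kb, that with the highest density, ranked in the list where it stood lowest, lay on a ribosomal RNA repeat, at chr17:39842801-39849000, 101520 bp from the Esp38 start, over RefSeq Rn18s-rs5 and the GENCODE rRNA gene CT010467.1. It held 695 (WT), 609 (mdx) and 506 (mdxTLR4-/-) reads per kb, from 4308, 3773 and 3139 reads. CpG islands covered 5830 of its 6200 bp, and H3K27ac peaks over it held 148, 101 and 67 reads. It thus led the lists of dense, of CpG-rich and of acetylated regions at once. Ribosomal DNA exists in many genomic copies of which the assembly holds few, so its density is a sum over copies and not a level per locus.
Next came a region of 4200 bp, 12891 bp from the spliceosome gene Snrpe, with 138, 118 and 146 reads per kb, and one of 3800 bp, 46319 bp from the kinase gene Jak1, with 88.2, 137 and 162. Repeat-masked sequence took 63.7% of the latter. A region of 35400 bp beginning 232 bp from the start of Cbx8, which encodes a chromobox subunit of Polycomb repressive complex 1, held 86.7 (WT), 89.9 (mdx) and 77.9 (mdxTLR4-/-) reads per kb, with 94.4% of its bases marked in all 3 lists. The last of the 5 densest intergenic regions of at least 2 kb was the region of the miRNA cluster Mir183, Mir96 and Mir182.
Among gene-body regions of at least 2 kb, the densest lay in Pak1, a p21-activated kinase gene (107, 118 and 98.6 reads per kb, 2200 bp, 59.5% repeat-masked), followed by Hspa1b, an inducible heat shock protein 70 gene, where the region began 38 bp from the start (70.0, 82.0 and 87.0). Hspa1b has a near-identical neighbour, so its reads are uncertain. Longer regions followed in Sptbn4, the spectrin of axon initial segments (21800 bp, 74.3, 81.1 and 66.4), in Ptprn2, a receptor phosphatase of secretory vesicles (13600 bp, 72.5, 80.8 and 66.4), and in the metalloprotease gene Adam33 (8000 bp, 74.3, 78.8 and 81.4). In the last 3 of these, the region's midpoint lay at 82.1%, 84.9% and 80.3% of the gene's length from its 5' end, in the distal part of the gene.

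Non-coding genes began in 1929 of the 12546 regions (15.4%). A lincRNA start lay in 635 (5.06%), an antisense RNA start in 220 (1.75%), a miRNA gene start in 118 (0.941%) and a pseudogene start in 737 (5.87%). Over all shared regions the share with any non-coding start was higher, at 20.4%. By type it was 6.03% (lincRNA), 4.11% (antisense), 1.56% (miRNA) and 6.86% (pseudogene), each above the share in these regions. The part of region length in this was not tested. The 687 lincRNA starts inside the regions were 13.2% of the 5209 annotated ones. LincRNA starts were in 7.52% of intergenic and in 1.33% of gene-body regions. The gap between those shares follows the annotation, in which a lincRNA by definition lies outside coding genes.
The miRNA regions ranged widely in length. The densest was a stretch of 600 bp in Zc3h7a that held the miRNA gene Gm23935, with 188 (WT), 187 (mdx) and 213 (mdxTLR4-/-) reads per kb from 113, 112 and 128 reads. The region of the Mir183, Mir96 and Mir182 cluster, whose products are known from sensory organs, spanned 38200 bp at chr6:30161601-30199800, 104739 bp from the nearest coding start, Ube2h. It held 68.5, 76.5 and 66.9 reads per kb from 2262, 2679 and 2287 reads, and 80.1% of it was marked in all 3 lists. So the 3 mature sequences with related seeds printed above come from genes under 1 marked block.
The Mir129-2 region, 79637 bp from Hsd17b12, held 61.6, 77.8 and 58.6 reads per kb, and a region over Gm47301, 32524 bp from Slc25a33, held 56.6, 70.0 and 59.6. Mir199b, within the dynamin gene Dnm1, lay in a region with 49.2, 58.8 and 50.1. Mir499, within the muscle myosin gene Myh7b, lay in one with 53.2, 56.7 and 51.9. Both regions lay in the later part of the host gene, with midpoints at 81.7% and 68.4% of its length. Mir9-2, a neural miRNA gene 206367 bp from the start of Mef2c, lay in an intergenic block of 32200 bp with 46.0, 60.4 and 41.5 reads per kb. Mir135a-1, beside Glyctk, lay in a region with 60.6, 52.3 and 46.9, the only one of these 8 with its highest density in the WT list. All 8 exceeded in each list the median of the 12546 regions, which follows from the choice of the densest.

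**Figure D3:**
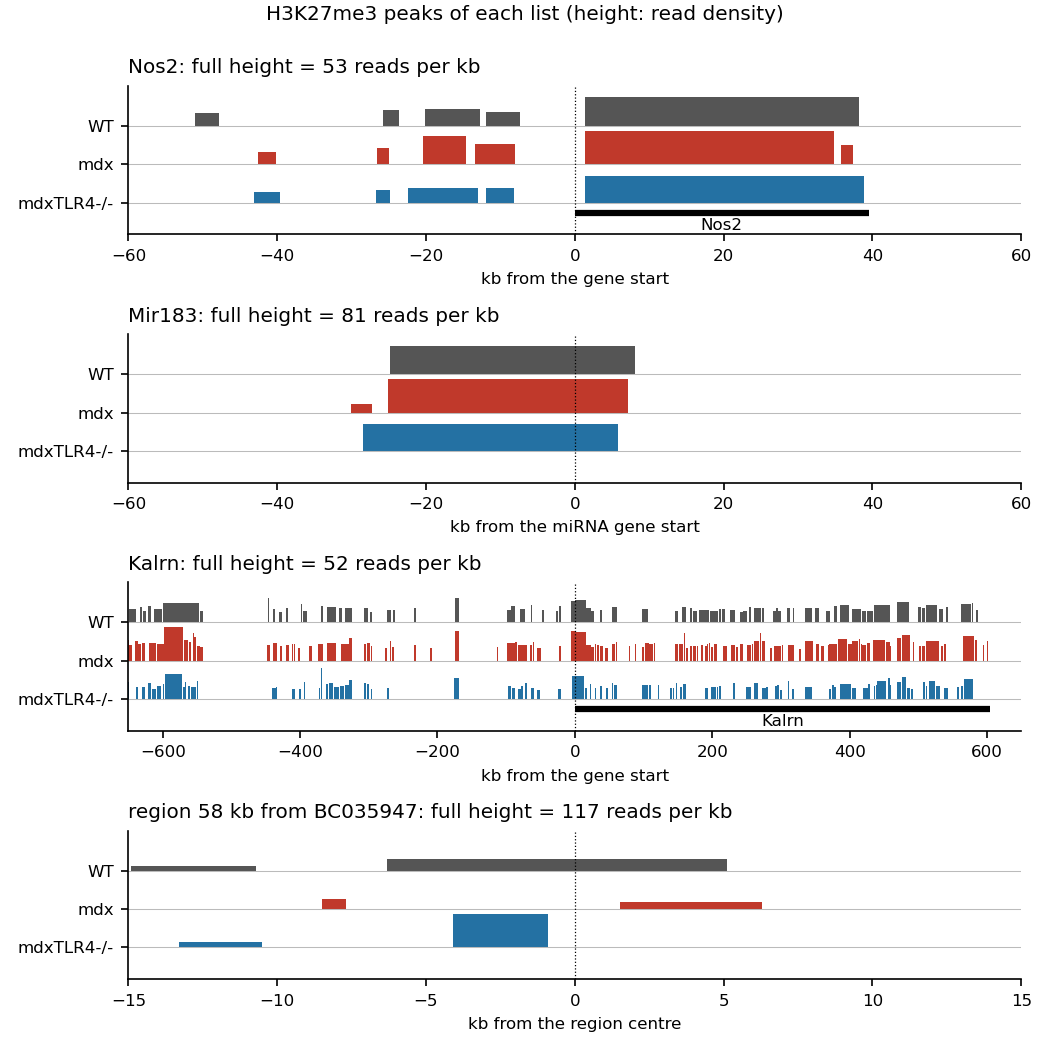
H3K27me3 peaks of the WT, mdx and mdxTLR4-/- lists (height, reads per kb, scaled in each panel) against distance in kb from the gene start of Nos2, from the miRNA gene start of Mir183, from the gene start of Kalrn and from the centre of a region near BC035947; black bars mark genes. The Nos2 body was covered in each list from 1414 bp after its start, the Mir183 cluster lay under 1 main peak in each list, Kalrn held 23 regions, and near BC035947 the mdx and mdxTLR4-/- peaks did not overlap.

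Gene-body regions were found in 2430 of 20807 coding genes (11.7%), of which 1027 held at least 2 and 224 at least 5. Genes that touched one were long, with a median of 55360.5 bp against 15075 bp for genes that touched none. A region lay wholly inside its gene in 83.9% of cases and ran past the gene's 3' end in 16.1%. Exons of the host made up 5.88% of the bases, although 62.8% of the regions touched an exon. The midpoints were spread along the host with a slope towards the 3' end, since 15.3%, 19.3%, 21.1%, 21.7% and 22.6% of 4621 midpoints fell into 5 equal parts of the gene, counted from its 5' end. The low share in the first of these is where the rule removed regions that reach the gene start.
The host's own start was marked by H3K27me3 in all 3 lists for 2734 gene-body regions (54.9%), in 1 or 2 lists for 657 and in none for 1587. Over all 20807 coding genes 21.0% of starts were marked in all 3 lists, but that share counts genes once, whereas a long host is counted here with each of its regions. The starts of the 1587 regions' unmarked hosts carried H3K27ac in 377 cases (23.8%), against 1 of 2734 marked ones (0.0366%) and 30.9% of all coding genes. In density the regions of marked and unmarked hosts were close, with medians of 24 and 25 reads per kb in WT, 29.2 and 30.3 in mdx and 22.9 and 24.1 in mdxTLR4-/-. A body region was therefore about as dense under an unmarked start as under a marked one.

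The genes with the most regions were long ones, and the first of them are partly a matter of gene models. Gm20388 held 47 regions, but its single coding transcript spans 4434882 bp across other genes. Fgfr2, a fibroblast growth factor receptor gene, held 26 in a model of 2960900 bp, while its second-longest coding transcript, 103813 bp, held 1. For 40 regions these models were the only host, and without them the gene-body share was 39.4%.
Thsd4, which encodes a fibrillin-binding matrix protein, held 24 regions over 40.5% of its length, with 20.8 (WT), 25.2 (mdx) and 19.4 (mdxTLR4-/-) reads per kb. Kalrn, a gene active in neurons, held 23 over 50.3% of its 604460 bp, with 23.5, 29.8 and 23.3. Its start was inside a peak of the mdxTLR4-/- list alone, and in the map of Kalrn peaks the WT and mdx lists had peaks on either side of it. Prkca (protein kinase C alpha) held 20 with 28.2, 34.1 and 27.3 reads per kb, Pde10a (a phosphodiesterase of striatal neurons) 17 with 25.7, 32.1 and 25.4, Ttc28 16 with 28.6, 33.6 and 27.6, and the integrin subunit gene Itga9 16 with 26.7, 31.3 and 25.4. In all 8 genes the mdx list had the highest density, as it had over all regions. Of the last 6, Prkca lay above the upper quartile of the regions in all 3 lists and Ttc28 in the WT and mdxTLR4-/- lists, while the others lay between the quartiles except for Thsd4, which was below the lower quartile.

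Gene-body regions were then counted in lists of genes for other lineages and functions, each beside the 11.7% of all coding genes. Over the lists that were not the study's own, 150 of 638 genes held one. Collagen and matrix genes held one in 30 of 77 cases (39.0%), voltage-gated channels in 20 of 61 (32.8%), neurotransmitter receptors and synaptic adhesion genes in 24 of 80 (30.0%), cadherins in 10 of 37 (27%) and axon guidance genes in 12 of 49 (24.5%). Developmental transcription factors held one in 24 of 118 (20.3%) and Wnt, TGF-beta, BMP and FGF genes in 16 of 80 (20.0%), while skeletal and cardiac muscle genes did in 3 of 48 (6.25%). The leading lists hold long genes. Among genes of at least 20 kb the shares were 42.3% for collagens and matrix, 37.0% for channels, 34.8% for neurotransmitter genes, 44.7% for developmental factors and 10.0% for muscle genes, against 20.1% for all such coding genes.
In these lists the gene start was marked more often than the body held a separate region, which the rule partly fixes. A region that reached a coding gene start or 50 kb was not counted in the body, whereas any peak over a start counted. These shares are therefore not a like comparison. Starts were under H3K27me3 in all 3 lists for 91.5% of the developmental factors, 80.0% of the signalling genes, 73.5% of axon guidance genes, 71.4% of collagen and matrix genes and 45.8% of muscle genes. Developmental factors had the highest share of marked starts and a middling share of body regions, and their median gene length was 9461.5 bp.

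**Figure D4:**
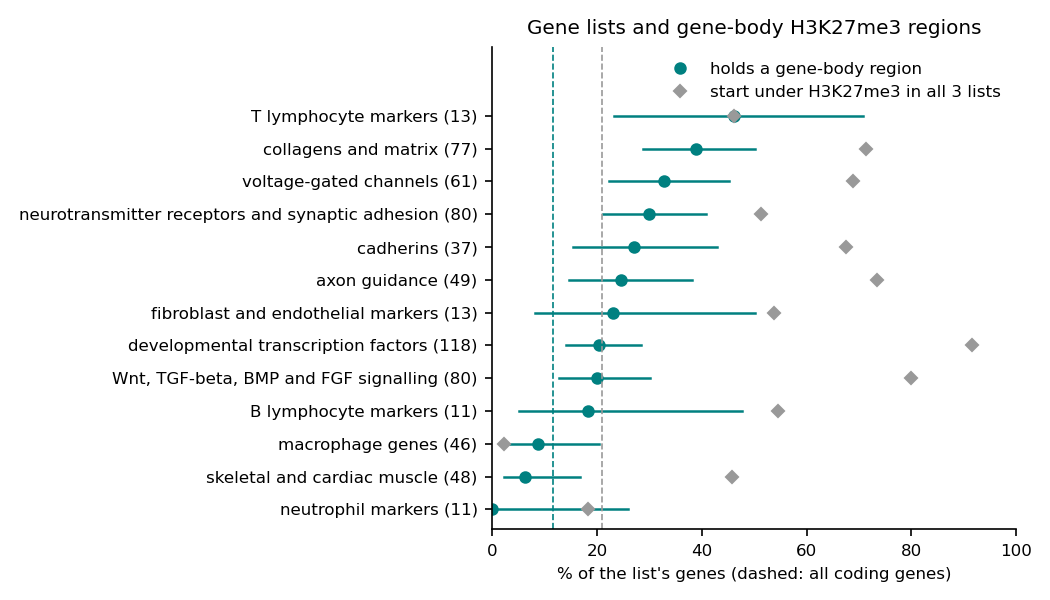
For each gene list (number of genes in brackets), the % of its genes that hold a gene-body region (circles, with 95% Wilson intervals for counting error) and the % whose start lay under H3K27me3 in all 3 lists (diamonds); dashed lines give all coding genes, teal for the 11.7% that hold a region and grey for the 21.0% with a marked start. The circle of collagen and matrix genes (39.0%) lies to the right of the teal line, and those of macrophage (8.70%) and muscle genes (6.25%) lie to its left with intervals that include it.

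Within the collagen and matrix list the most bases were covered in Col23a1, a transmembrane collagen gene (7 regions, 50.9% of the gene, 27.9 reads per kb in WT, 35.6 in mdx and 27.4 in mdxTLR4-/-), Adamts2, a procollagen protease gene (7 regions, 52.9%, 19.9, 26.1 and 19.8) and Col13a1 (3 regions, 60.1%, 28.6, 31.0 and 27.2). In the channel list Kcnip1, the gene of a channel-interacting protein and not of a channel, had 15 regions (24.9, 30.0 and 24.1 reads per kb). Cacna1a, a P/Q-type calcium channel gene, had 7 over 58.1% of its length (29.8, 35.5 and 28.5), and Kcnj6 had 14 (22.8, 28.3 and 21.9). Col23a1 and Cacna1a lay above the upper quartile of the regions in all 3 lists, and Adamts2 below the lower quartile in the WT and mdxTLR4-/- lists.
For synaptic genes the leaders were the GABA-B receptor gene Gabbr2 (8 regions, 28.0, 32.4 and 24.7), the kainate receptor gene Grik4 (6, 26.8, 30.1 and 24.5) and the scaffold gene Shank2 (5, 27.1, 31.7 and 24.7). For cadherins they were Cdh23, of the hair cell tip link (9 regions, 48% of the gene, 32.7, 38.7 and 34.1), Cdh4 (9, 25, 28.1 and 23.2) and Fat2 (1, 28.4, 33.8 and 26.5). For axon guidance they were the semaphorin receptor gene Plxna4 (15 regions, 22.9, 27.6 and 20.8), Sema5b (4 over 67.4%, 26.1, 32.9 and 24.1) and Slit1 (1, 33.9, 39.5 and 33.8). All had their highest density in the mdx list, which is the list with the highest density overall.
In the signalling list, after Fgfr2, Ror2, a Wnt5a receptor gene, held 7 regions over 57.5% of its length (22.8, 28.3 and 21.8 reads per kb), and Fgf1 held 6 over 71.6% (26.0, 33.2 and 23.4). Of developmental factors, Prdm16, which drives brown fat fate, held 7 (27.1, 32.6 and 27.4), Pax5, the B lineage factor, 5 over 43.0% (23.4, 29.6 and 23.8), and Prdm6 5 (21.4, 26.3 and 19.3). Among muscle genes Myh11, the smooth muscle myosin, held 4 over 66.3% (28.4, 34.4 and 25.3), Ldb3 3 (28.4, 35.1 and 29.8) and the calcium release channel gene Ryr1 2 (30.9, 38.1 and 33.4). The muscle list thus held few regions, and the gene with most of them is one of smooth muscle.

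Markers of other blood and stromal lineages gave small lists. A body region lay in 6 of 13 T lymphocyte genes (46.2%, interval 23.2 to 70.9), 2 of 11 B lymphocyte genes (18.2%), 3 of 13 fibroblast and endothelial genes (23.1%) and 0 of 11 neutrophil genes, which are short, with a median of 3090 bp. The T cell factor gene Bcl11b held 2 regions with 38.4 (WT), 53.3 (mdx) and 43.9 (mdxTLR4-/-) reads per kb, and Gata3 held 1 with 39.3, 48.8 and 35.7. Cd4, the T helper coreceptor gene, held 3 over 77.3% of its length with 22.0, 28.4 and 22.5, and its start was marked in none of the lists. So at Cd4 the mark lay in the body alone, whereas Bcl11b and Gata3 also carried it at the start in all 3 lists. The B cell factor genes Pax5 and Ebf1 (3 regions, 24.2, 28.2 and 22.2) were marked at the start in all lists, as were the endothelial genes Flt1 (4 regions, 21.7, 27.2 and 19.8), Erg (4, 26.7, 30.6 and 22.6) and Cdh5 (1, 23.3, 34.2 and 17.6).

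Among the 46 macrophage genes 4 held a body region (8.70%, interval 3.43 to 20.3), and for 3 of these 4 the start was marked in none of the lists. Nos2, the inducible nitric oxide synthase gene that macrophages switch on after stimulation, had 1 region over 94.8% of its length, at chr11:78922201-78959600, from 1414 bp after its start to near its end. It held 46.7 reads per kb in WT, 52.3 in mdx and 42.4 in mdxTLR4-/-, from 1717, 1829 and 1586 reads, which is above the upper quartile of the regions in each list. With densities divided by the median ratio over all shared regions (centred), mdx stood at 0.920 of WT (exact Clopper-Pearson interval on the reads, 0.861 to 0.983), mdxTLR4-/- at 0.947 of WT (0.884 to 1.01) and mdxTLR4-/- at 1.03 of mdx (0.960 to 1.1). The 3 lists lay close together there, with 93.6% of the bases marked in all of them. A second region lay 7387 bp upstream of the Nos2 start, with 25.7, 38.6 and 23.6 reads per kb.
H2-Ab1, a class II histocompatibility gene, had a region from 312 bp after its start over 97.3% of its length, with 27.7 (WT), 34.5 (mdx) and 28.0 (mdxTLR4-/-) reads per kb, and a neighbouring region in H2-Ob reached to 489 bp from the same start with 28.9, 44.3 and 29.2. Both left the H2-Ab1 start free of peaks. A region in the gene model Gm17268, 971 bp from the start of the chemokine gene Ccl2, held 23.4, 33.2 and 22.9. Cx3cr1, the fractalkine receptor gene, held 2 regions over 5.82% of its gene model, with 28.1, 29.1 and 36.1 reads per kb. Within 50 kb of the start of a macrophage gene there were 35 regions, near 17 of the 46 genes.
The study's own lists of anti-inflammatory, pro-fibrotic and pro-inflammatory genes held a body region in 113 of 762 (14.8%), 15 of 59 (25.4%) and 66 of 679 genes (9.72%). Leading genes were Cadm1 (12 regions, 24.9, 32.0 and 23.1 reads per kb), Chn2 (11, 26.9, 34.6 and 27.3) and Myo1d (13, 23.3, 28.2 and 22.7) in the first, Ltbp2, of latent TGF-beta binding (3, 34.6, 38.7 and 34.8), in the second, and Antxr1 (11 over 75.5% of the gene, 26.5, 31.2 and 23.8), Dner (9, 23.4, 27.4 and 21.2) and Ttc39b (4 over 87.1%, 41.5, 55 and 39.9) in the third. These lists were put together by the study and are not independent of it.

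Between genotypes, the read density within peaks differed by a common shift and, for most of the 12546 regions, little beyond it. The rule kept only regions with a peak in each list, and density counts only reads inside peaks. A region without a called peak in 1 of the lists could therefore not appear, and similar densities are partly set by the rule. Values that count coverage by peaks passed 1.5-fold in many more regions, as given below. Before scaling, density in mdx exceeded that in WT in 89.8% of the 12546 regions. The median ratio over all 17005 shared regions was 1.22 (mdx to WT), 0.959 (mdxTLR4-/- to WT) and 0.790 (mdxTLR4-/- to mdx), and with no library depth it cannot be told whether these shifts are of sequencing or of the mark. After division by them, the median ratio over the 12546 regions was 1.00 (quartiles 0.910 and 1.1), 0.993 (0.899 and 1.11) and 0.993 (0.894 and 1.1). A median near 1 follows from the centring, since the regions are 73.8% of those it was taken over, and the quartiles give the scatter. The 3 comparisons share lists and are not independent.
A region was counted as higher or lower where the centred ratio passed 1.5-fold. From WT to mdx 149 regions (1.19%) were higher and 149 (1.19%) lower, against 1.03% and 1.04% of all shared regions. From WT to mdxTLR4-/- 360 (2.87%) were higher and 226 (1.80%) lower, against 2.49% and 1.55%, and from mdx to mdxTLR4-/- 328 (2.61%) and 215 (1.71%), against 2.23% and 1.43%. Counting only regions whose exact interval also excluded 1, which is no test between genotypes, left 146 and 146, 327 and 215, and 300 and 200 regions, against 1.01% and 1.02%, 2.27% and 1.48%, and 2.05% and 1.35% of all shared regions. The shares in the regions were close to the background, of which they form most. The direction depended on the scaling. With lists scaled to their total reads in peaks instead, the counts were 143 higher and 157 lower, 635 and 96, and 590 and 88, without scaling 1154 and 25, 267 and 341, and 60 and 1940, and with the first percentile of density as the base 248 and 98, 494 and 141, and 343 and 203. With reads divided by the length of the merged region instead of that of the peaks, so that coverage by peaks enters the value, the counts were 1125 and 1607, 804 and 2369, and 1061 and 2095, which turned the direction of both mdxTLR4-/- comparisons. Counts over all shared regions were not made under these other scalings, so no trait of the regions can be read from them.
The regions past 1.5-fold were short and thinly read, with a median length of 4600 bp from WT to mdx and 5200 bp in the other comparisons. From WT to mdx, the share past 1.5-fold was 12.1% of the 58 regions under 2 kb, 6.43% at 2 to 5 kb, 2.19% at 5 to 10 kb, 0.444% at 10 to 20 kb and 0 of 1359 regions from 20 kb. In the same length classes of regions over starts it was 9.09% (of 11 regions), 6.24%, 2.42%, 0.350% and 0%. Among regions with at least 100 reads in both lists the share past 1.5-fold was 43 of 8041 (0.535%), 46 of 6573 (0.700%) and 63 of 6785 (0.929%) in the 3 comparisons, against 0.604%, 0.842% and 0.889% of all shared regions with as many reads. The share also followed where the peaks lay: of the 338 regions with no base common to the 3 lists, 4.73%, 11.8% and 14.8% were past 1.5-fold, and of the 6390 with at least 50% of their bases common, 0.923%, 1.41% and 1.28%. Over all shared regions these shares were close, at 4.57%, 11.7% and 14.6% with no common base. With at least 50% common they were 0.734%, 1.16% and 1.04%. A pattern of a fall in mdx and a rise from mdx to mdxTLR4-/- was met by 25 regions (0.199%) and the opposite one by 47 (0.375%), against 0.165% and 0.294% of all shared regions; both steps use the mdx list, so an extreme value in it alone gives either.
GC content moved with the ratio. From WT to mdx the median centred ratio went from 1.05 in regions under 42% GC through 1.02, 1.00 and 0.979 to 0.952 in those of at least 51% GC. From mdx to mdxTLR4-/- it went the other way, from 0.938 to 1.06, and from WT to mdxTLR4-/- it stayed between 0.988 and 1.01. The part of GC content in the calls was not tested.

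**Figure D5:**
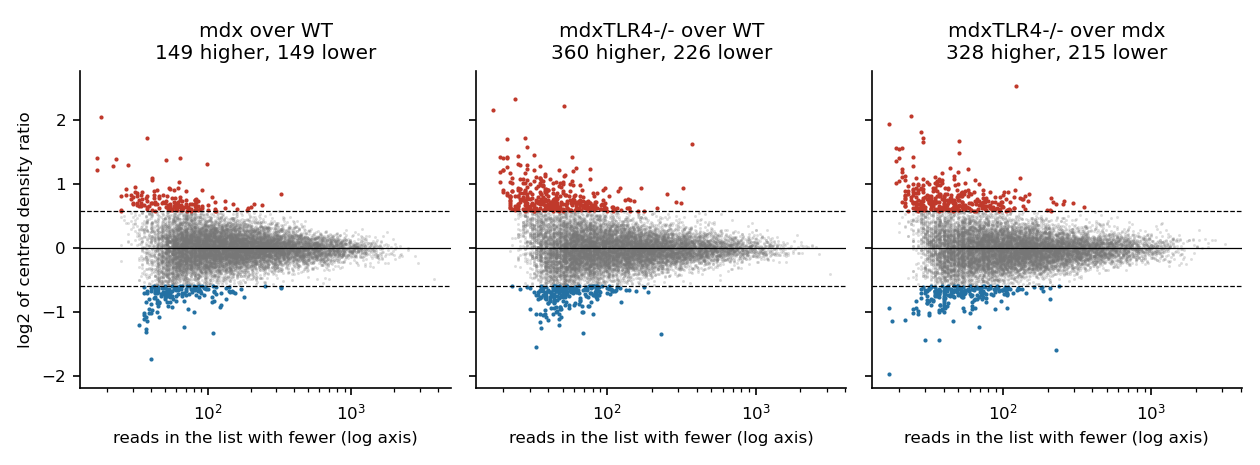
Centred density ratio on the log2 scale (vertical axis) against reads in the list with fewer reads (log axis) for the 12546 regions in the 3 comparisons; red and blue points lie past the dashed 1.5-fold lines. The scatter narrows as reads rise, and the coloured points, 149 and 149, 360 and 226, and 328 and 215, lie mostly at low reads.

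The largest changes among regions with at least 100 reads in each list were these, as values of 1 merged list each. Lin28b, the gene of an RNA-binding protein that blocks let-7 maturation, held a region at chr10:45466001-45479800 with 23.5 (WT), 51.5 (mdx) and 35.0 (mdxTLR4-/-) reads per kb and a centred mdx to WT ratio of 1.80 (exact interval 1.56 to 2.09). WT peaks covered 100% of it and mdx peaks 60.9%. Regions 66175 bp from Spred2, a Ras pathway inhibitor gene (17.4, 35.2 and 26.2, ratio 1.67), 17550 bp from Spidr (18.6, 37.3 and 22.9, ratio 1.65) and 1729 bp from Plch1 (21.9, 43.3 and 25.4, ratio 1.62) followed. In all 4 the mdx peaks covered a smaller part of the region, 30.6% to 60.9%, than the WT peaks, 89.8% to 100%, so a narrower peak was compared with a broader one.
Among the falls from WT to mdx, 3 of 4 had the opposite layout, with the smaller coverage in WT. A region 21344 bp from Paqr9 held 60.0, 29.2 and 42.5 reads per kb (ratio 0.40, 0.314 to 0.512), with WT peaks over 28.1% and mdx peaks over 100% of it. One 57843 bp from BC035947 held 39.5, 25.4 and 117 (ratio 0.529), one 25189 bp from the iron regulatory gene Ireb2 49.7, 35.0 and 30.4 (0.579), and one in the homeobox gene Zfhx2 38.2, 27.6 and 23.2 (0.593). The region near BC035947 was the exception, with WT peaks over 90.5% and mdx peaks over 38.1% of it.
The region near BC035947, at chr1:78570001-78582600 over RefSeq Mogat1, also had the largest rise from mdx to mdxTLR4-/- (5.82, interval 4.74 to 7.20). No base of it was common to the 3 lists, and its mdx and mdxTLR4-/- peaks did not touch, so that ratio compares different sequence. Rises in Ftcd (23.4, 29.2 and 43.2, ratio 1.87), near Paqr9 (1.84) and 17796 bp from Xrn2 (25.2, 25.1 and 36.3, ratio 1.83) came with mdxTLR4-/- peaks over 23.0%, 37.5% and 26.8% of the region.
The largest fall from mdx to mdxTLR4-/- was of another kind, since all 3 lists covered the whole region. At chr1:24611401-24616200, 23929 bp from the collagen gene Col19a1, the density was 126 in WT, 181 in mdx and 47.7 in mdxTLR4-/- reads per kb (603, 870 and 229 reads, ratio 0.333, 0.287 to 0.386). The stretch holds the unprocessed pseudogenes Gm10222 and Gm10925, copies of mitochondrial genes. Peaks on the mitochondrial chromosome held 2655, 3880 and 965 reads, and the reads of the region were 22.7%, 22.4% and 23.7% of those. The region's reads thus kept almost the same proportion to mitochondrial reads in the 3 lists; whether they came from mitochondrial DNA was not tested. The other falls were in Fam47e (25, 44.2 and 18.2, ratio 0.523), 35362 bp from the transcription factor gene Sall1 (37.2, 57.5 and 26.2, ratio 0.578) and 32734 bp from Kif13a (25.6, 36.2 and 17.3, ratio 0.605).
Ratios of some long dense regions described above are given as description, since these were not chosen for change. The regions near Cbx8 and at the Mir183 cluster were ranked in the list where they stood lowest, which favours regions dense in every list. From WT to mdx, moreover, no region of at least 20 kb passed 1.5-fold. The centred ratios from WT to mdx, WT to mdxTLR4-/- and mdx to mdxTLR4-/- were 0.852, 0.937 and 1.1 near Cbx8, 0.917, 1.02 and 1.11 at the Mir183 cluster, 1.00, 1.04 and 1.04 in Nfib and 1.02, 1.05 and 1.03 in Begain. None of these passed 1.5-fold, and the intervals near Cbx8, which rest on 2912, 3181 and 2680 reads, excluded 1 in all 3 comparisons while covering counting error only.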

How the data were processed

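H3K27me3 and H3K27ac were measured by native MNase ChIP-seq in BMDM of WT, mdx and mdxTLR4-/- mice. Per the submitters' processing notes and the study's methods, the authors used CASAVA 1.8, cutadapt 1.15, Bowtie2 2.3.4 on mm10 and SICER 2.0 (window 200 bp, gap 600 bp, FDR 0.01) on merged replicates. The deposited peak values are counts of ChIP reads per peak, not normalized. Peaks were merged across lists with Python 3.11.15 (numpy 2.4.6, pandas 2.3.3) and matched to GENCODE vM21 and to the GRCm38 sequence. Density was reads per kb of peak, and ratios were divided by their median over all shared regions. Intervals are Clopper-Pearson for ratios and Wilson for shares (scipy 1.17.1), at 95%. The members and gene lists were chosen with earlier results of these data known. Named regions are the densest, most changed, longest, most CpG-rich and most acetylated, those with miRNA starts, genes with most regions or bases, and regions near macrophage genes. With 1 merged list per genotype no test was run. Scripts were tested on simulated data. Chromosome X was left out, and input libraries entered only through the authors' peak calling.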

Additional observations from a re-analysis of the deposited data

Results flagged for a closer look

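On the X chromosome, which the rule leaves out, 36 merged regions met all its other conditions, of 97 shared by the 3 lists. They were set apart because they belong to no comparison of the report. Of the 36, 17 lay in gene bodies and 19 between genes. Their median density was 24.2 (WT), 32.2 (mdx) and 24.2 (mdxTLR4-/-) reads per kb and their median length 4400 bp, against 8000 bp on chromosomes 1 to 19.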

How the results depend on the processing

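Of 72 alternatives to 15 results, 27 left the value within the margin set for it and 45 moved it; the alternatives on common bases and gene models were chosen after seeing the data. The cause was not tested. The gene-body share (39.7%) was 36.3% with any coding transcript start barred and 36.8% with midpoints. The median length (8000 bp) was 8600 bp with peaks merged over 600 bp, 9000 bp with peaks of at least 2 kb and 9000 bp with equal numbers of peaks. For mdx to WT, mdxTLR4-/- to WT and mdxTLR4-/- to mdx, the median ratio was 1.22, 0.953 and 0.784 without scaling, 0.997, 1.08 and 1.09 with total reads in peaks as base, 1.05, 1.04 and 0.999 with the first percentile as base, and 0.988, 0.951 and 0.968 per kb of merged region; with at least 50% covered in each list it was 0.988 for both mdxTLR4-/- comparisons. Counts past 1.5-fold (298, 586 and 543 of 12546) were 2732, 3173 and 3156 per kb of merged region and 27, 77 and 59 past 2-fold. Without scaling they were 1179 (mdx to WT) and 2000 (mdxTLR4-/- to mdx). Other settings kept fewer regions. The counts were 69, 109 and 97 of 8301 with at least 50% covered, and 30, 45 and 54 of 6435 with at least 100 reads in each list. With at least 50% of the bases common they were 59, 90 and 82 of 6390. The CpG island share (5.64%) was 39.1% with the looser rule and 2.33% in the central 2 kb. The H3K27ac share (3.20%) was 0.263% with peaks of at least 20 reads. The host start share (54.9%) was 68.1% in any list, 69.9% within 2 kb and 68.1% with any transcript start. The median distance (31640.5 bp) was 24235 bp to any transcript start and 37260.5 bp from midpoints. The non-coding share (15.4%) was 8.05% for long non-coding and miRNA genes alone. The number of regions stayed between 8996 and 11879 against 12546. No paired analysis was possible because each genotype has 1 list of merged replicates, and for the same reason no replicate could be left out.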
